A study of Mus musculus with 10 samples.

Results

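The genes described here are 40 genes of the type I interferon response, chosen by name from a list of symbols. No value of theirs was in the rule, but earlier results of these data were known when they were chosen. All 40 symbols were found among the 55453 rows of the deposited count table, and all 40 were among the 14481 genes that passed a filter on low counts (filterByExpr of edgeR, minimum count of 10). The counts came from bulk RNA-seq of microglia (CD45int CD11b+ cells) that were sorted from hippocampal tissue of 3xTg AD mice, all female and over 15 months of age. These mice carry mutated human transgenes for the amyloid precursor protein, tau and presenilin that are driven by a Thy1 promoter, active mainly in neurons, and both groups carry them. The 5 PBS libraries came from mice given PBS, and the 5 GA libraries from mice given glatiramer acetate (GA), a synthetic peptide mixture used against multiple sclerosis, in a weekly dose of 0.1 mg over about 8 weeks. Library titles join a prefix and a number: 388_1 to 388_5 are PBS, while 394_1, 394_2, 400_1, 400_2 and 400_3 are GA. The labels do not say what the prefix stands for. No PBS library carries 394 or 400, so a difference between prefix 388 and the others cannot be told apart from a difference between treatments. The labels also do not say that every library is a separate mouse, so p-values here measure the spread between libraries.

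Total counts ranged from 32332185 to 38764643 per library. The summed level of 8 microglial markers, among them *P2ry12* and *Tmem119*, ran from 50448 to 60414 CPM in PBS and from 52019 to 55958 CPM in GA libraries, so the labelled cell type was present in every library. CPM values are counts divided by the library total after TMM scaling, as edgeR gives them.

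Type I interferons, the alpha and beta interferons, are secreted by cells whose sensors have met foreign or misplaced nucleic acid. They bind the receptor formed by Ifnar1 and Ifnar2, whose kinases Jak1 and Tyk2 phosphorylate transcription factors such as Stat2. With Irf9 these form a complex that enters the nucleus and binds the interferon-stimulated response element (ISRE) in the promoters of interferon-stimulated genes, many of which encode antiviral proteins. In the brain, microglia that express these genes are known from ageing and from amyloid models.

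Letters of the ISRE can be searched for in promoter sequences. The windows were those of RefSeq (build GRCm38.p6, 250 bases before to 50 after the start of each gene). They were searched for the letters GAAANNGAAA or their reverse complement TTTCNNTTTC, counting overlapping matches on both strands. A promoter entry was found for 30 of the 40 genes, and 18 of these 30 held a match (60%). The same letters occurred in 396 of 10109 tested genes with an entry (3.92%) and in 1079 of all 27025 genes with an entry (3.99%). *Usp18*, *Dhx58*, *Zbp1*, *Ifi204*, *Oas2*, *Mx1*, *Mx2*, *Ifi27l2a*, *Rtp4* and *Parp14* had no entry. The stretches below, shown because their genes recur in the comparisons, are written 5′ to 3′ on the strand of the gene, and capitals mark the matches. They lie at chr4:156200850-156200921 (*Isg15*, minus strand), chr19:34640760-34640838 (*Ifit1*, plus strand), chr19:34583348-34583441 (*Ifit3*, plus strand), chr5:120907526-120907570 (*Oas1a*, minus strand), chr11:82951922-82951981 (*Slfn5*, plus strand) and chr3:142559974-142560039 (*Gbp3*, plus strand).
Isg15: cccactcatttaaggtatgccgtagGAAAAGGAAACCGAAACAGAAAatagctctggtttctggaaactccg
Ifit1: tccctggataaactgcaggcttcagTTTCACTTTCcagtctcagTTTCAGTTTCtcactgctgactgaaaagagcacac
Ifit3: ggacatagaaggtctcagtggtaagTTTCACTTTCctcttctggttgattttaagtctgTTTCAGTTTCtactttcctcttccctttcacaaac
Oas1a: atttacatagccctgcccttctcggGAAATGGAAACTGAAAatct
Slfn5: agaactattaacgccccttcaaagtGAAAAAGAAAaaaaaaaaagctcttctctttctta
Gbp3: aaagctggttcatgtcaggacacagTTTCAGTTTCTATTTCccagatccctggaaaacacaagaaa

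Starts are those of RefSeq. The GENCODE model of *Slfn5* begins at chr11:82951349, before the stretch printed, so its stretch lies inside that model. *Isg15* held 3 overlapping matches, the last ending 56 bases before the start of the gene. *Ifit1* and *Ifit3* held 2 each, and the stretch of *Ifit3b* at chr19:34607744-34607837 was letter for letter that of *Ifit3*. A match is a description of the letters in the window and not a measured binding site, and a window without a match does not exclude an ISRE. The annotation also places other gene models over parts of the exons of some of the 40, among them *Rnf31* over *Irf9*, *Dhx58os* over *Dhx58* and *Slfn5os* over *Slfn5*, and the library kit does not mark strand, so reads from such pairs cannot be told apart.

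Over the 40 genes, the mean log2 CPM was 3.53, 3.29, 4.06, 3.39 and 3.30 in PBS libraries 388_1 to 388_5. It was 3.13 and 3.25 in GA libraries 394_1 and 394_2, and 3.49, 4.43 and 4.62 in GA libraries 400_1, 400_2 and 400_3. The GA libraries 400_2 and 400_3 were the highest of all 10, the PBS library 388_3 was the next, and both 394 libraries were below every PBS library. The group means were 3.51 ± 0.32 for PBS and 3.79 ± 0.69 for GA (SD, n = 5 each), a difference of 0.27 that is smaller than the spread within either group. The means of the prefixes lay further apart than those of the treatments, at 3.19 for 394 (n = 2) and 4.18 for 400 (n = 3). No test was made on this mean.

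**Figure D1:**
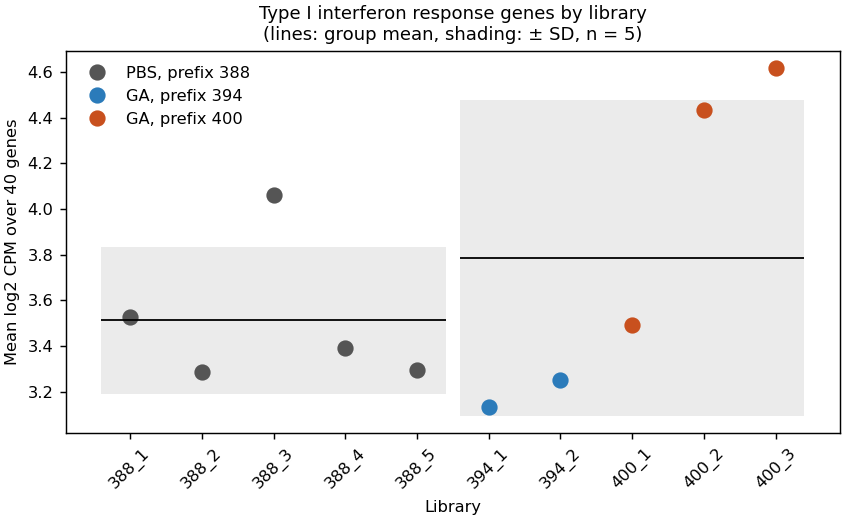
Mean log2 CPM over the 40 interferon response genes (vertical axis) in each of the 10 libraries (horizontal axis), coloured by treatment and title prefix, with lines at the group means and shading for ± SD (n = 5). GA libraries 400_2 and 400_3 lie at 4.43 and 4.62, above every other library, while 394_1 and 394_2 lie at 3.13 and 3.25, below every PBS library.

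The comparison the study was designed for, GA against PBS, gave no called gene on this list. With edgeR's quasi-likelihood test and Benjamini-Hochberg adjustment over all genes tested, 0 of the 40 passed an adjusted p of 0.05, and 0% of all genes did. At an unadjusted p of 0.05, edgeR counted 0 of the 40 as higher in GA, where 2.58% of all genes were, and 0 as lower, where 3.17% were. DESeq2 and limma-voom also called 0 of the 40 and counted 0 at an unadjusted p of 0.05, where they counted 4.52% and 6.12% of all genes. DESeq2 called 2 genes over the whole table and limma-voom 0. The fitted log2 fold change was above 0 for 36 of the 40 genes, compared with 50.1% of all genes, and its median was 0.29. In 0 of the 40 genes were the 5 GA libraries all above or all below the 5 PBS libraries, a separation found in 0.891% of all genes. The direction depended on 400_2 and 400_3. Without these 2 libraries, a choice made after their values were seen, 6 of the 40 fold changes were above 0 and the difference in the mean over the genes was -0.22.

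The GA libraries were next compared with each other, since prefixes 394 and 400 share the treatment label. In a fit of all 10 libraries with a group for each prefix, all 40 genes had a higher fitted level in the 3 libraries of prefix 400 than in the 2 of prefix 394, where 51.4% of all genes did. The median log2 fold change was 1.2 over the 40 genes and 0.01 over all genes tested. At an unadjusted p of 0.05, edgeR counted 26 of the 40 as higher in prefix 400, compared with 2.27% of all genes, and 0 as lower, compared with 3.2%. After adjustment over all genes edgeR called 0 of the 40, with a smallest adjusted p of 0.377, while 0.0138% of all genes were called. Without a filter on low counts, edgeR called 16 of the 40 in this comparison and 0.294% of all genes. Without 400_1 it called *Slfn5* and *Slfn2*, and 0.0204% of all genes. Without 400_2 and 400_3 it counted 0 of the 40 at an unadjusted p of 0.05 and 2.95% of all genes, with 400_1 as the only library of its prefix, assumed to vary like the others.

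**Figure D2:**
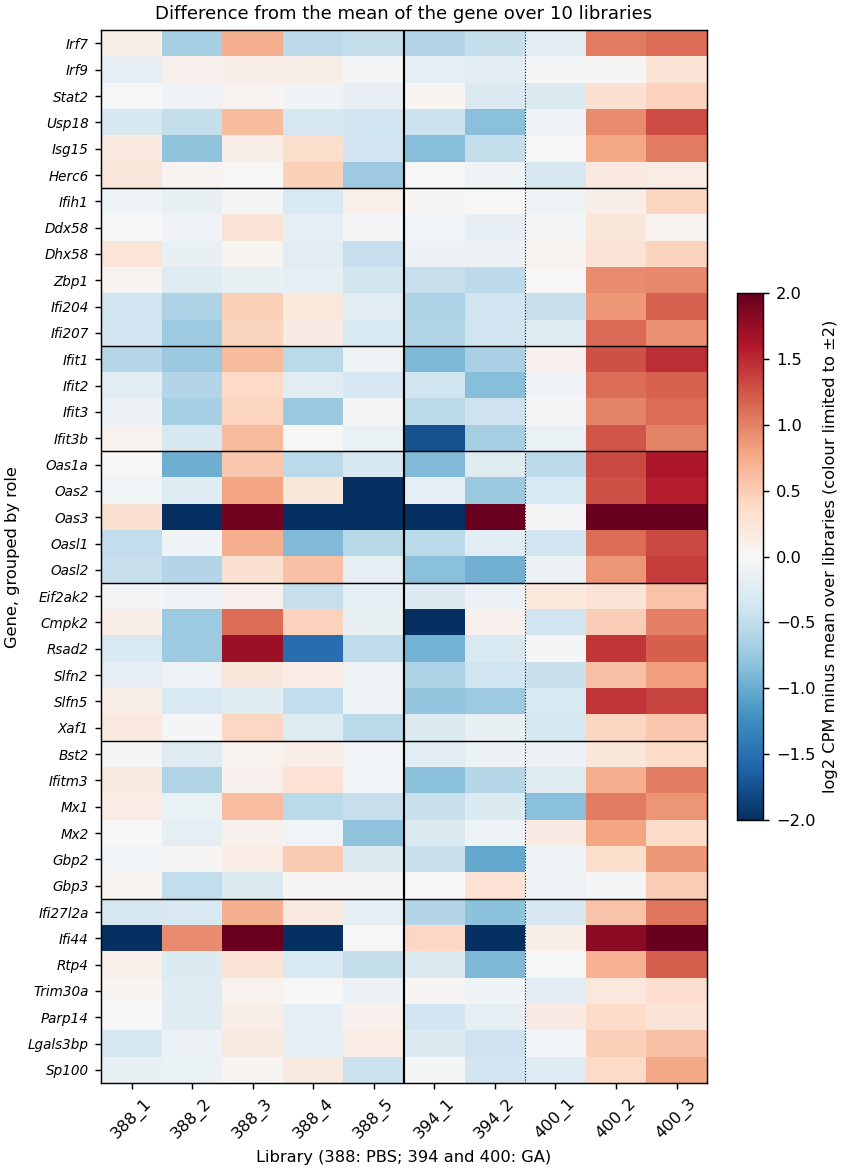
Each row is an interferon response gene, grouped by role, and each column a library. Colour gives log2 CPM minus the mean of the gene over the 10 libraries, limited to 2 in either direction. GA libraries 400_2 and 400_3 are above the mean of the gene in 39 and 40 of 40 rows and PBS library 388_3 in 36, while 394_1 and 394_2 are above it in 5 and 3.

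The signalling and feedback genes hold the transcription factors that carry the interferon signal and the proteins that limit it. *Irf7*, the interferon-induced factor that amplifies the transcription of the alpha interferons, was at 17.0, 9.89, 25.9, 10.9 and 11.2 CPM in PBS libraries 388_1 to 388_5, 10.4 and 11.2 CPM in 394_1 and 394_2, and 13.4, 32.2 and 34.1 CPM in 400_1 to 400_3. It was highest in 400_3 and 400_2, with 388_3 next, and the other 7 libraries lay between 9.89 and 17.0 CPM, so the groups overlapped. The log2 fold change was 0.44 ± 0.36 (SE) for GA against PBS (edgeR, adjusted p = 0.921) and 1.29 ± 0.43 for prefix 400 against 394 (adjusted p = 0.630). *Usp18*, a protease that removes Isg15 from proteins and blocks signalling at the receptor, had the same 3 highest libraries. Its levels in the order given above were 11.9, 10.7, 23.1, 11.7 and 11.2 CPM in PBS, 11 and 8.25 CPM in the 394 libraries, and 14.2, 28.5 and 36.7 CPM in the 400 libraries. The log2 fold change of *Usp18* was 0.53 ± 0.36 for GA against PBS (edgeR, adjusted p = 0.896), and 1.46 ± 0.39 between the prefixes (adjusted p = 0.478).

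*Isg15*, a ubiquitin-like protein that is attached to other proteins, was low throughout. It was at 4.29, 2.12, 4.12, 4.80 and 2.86 CPM in PBS, 2.04 and 2.67 CPM in the 394 libraries and 3.76, 6.40 and 7.74 CPM in the 400 libraries. Only 400_2 and 400_3 were above the highest PBS library, and 394_1 was the lowest of all. *Stat2*, which carries the signal into the nucleus, spread little in PBS, at 78.3, 74.4, 81.5, 74.8 and 69.8 CPM, and more in GA, at 80.1 and 64.4 CPM for prefix 394 and 64.4, 96.9 and 107 CPM for prefix 400. Its SD of log2 CPM was 0.08 in PBS and 0.34 in GA. *Irf9*, the DNA-binding partner of Stat2, was at 72.0, 85.6, 88.6, 88.1 and 79.1 CPM in PBS, 70.4 and 69.9 CPM in the 394 libraries and 79.7, 82.1 and 97.8 CPM in the 400 libraries, so that 400_2 was within the PBS range, 400_3 above it and both 394 libraries below it. The log2 fold change of *Irf9* was -0.05 ± 0.10 for GA against PBS (edgeR, adjusted p = 0.971) and 0.30 ± 0.12 between the prefixes (adjusted p = 0.789), where that of *Stat2* was 0.31 ± 0.17. *Herc6*, the mouse ligase that attaches Isg15, was at 20.5, 18.2, 17.6, 24.3 and 10.6 CPM in PBS, 17.6 and 16.4 CPM in the 394 libraries and 14, 20.1 and 19.3 CPM in the 400 libraries. It was both highest and lowest in PBS libraries, and the log2 fold change between the prefixes was 0.07 ± 0.27. A part of its sequence lies in an overlapping gene model, *Gm45193*, with which it shares 10.3% of its stretches of 100 bases.

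**Figure D3:**
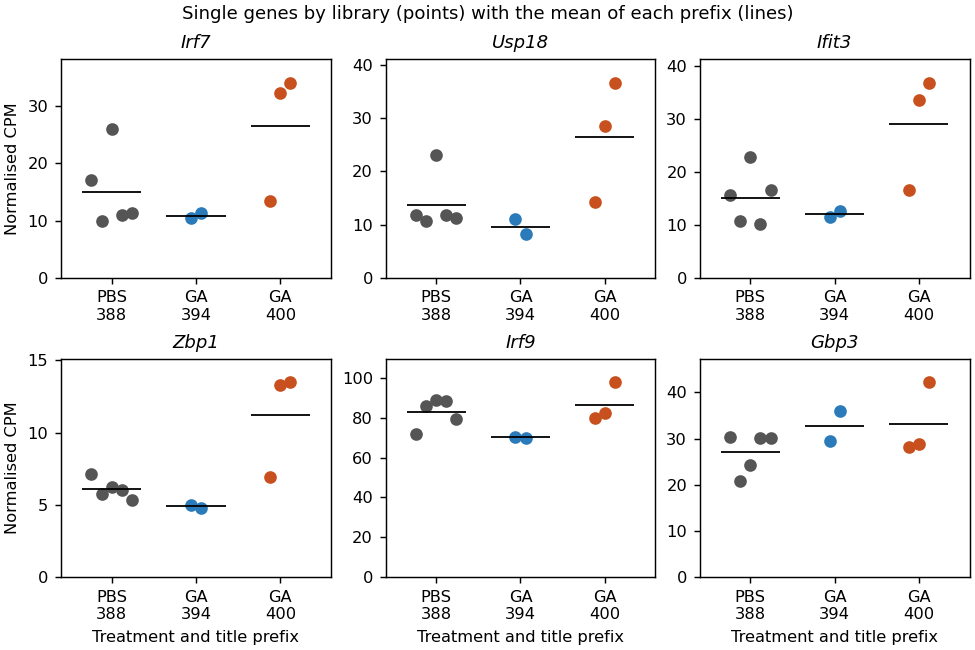
Normalised CPM (vertical axes, each from 0) of 6 genes in the 10 libraries (points), by treatment and title prefix (horizontal axes), with lines at the mean of each prefix. Irf7, Usp18, Ifit3 and Zbp1 are highest in 400_2 and 400_3, while Irf9 and Gbp3 have 400_2 within the PBS range.

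The nucleic acid sensors detect viral or misplaced RNA and DNA in the cell. The largest of their differences between prefixes was that of *Ifi207*, of the DNA-sensing Ifi200 family, with a log2 fold change of 1.22 ± 0.39, followed by *Zbp1* and *Ifi204*. *Zbp1*, a sensor of left-handed nucleic acid that can trigger cell death, was at 7.17, 5.74, 6.23, 6.01 and 5.33 CPM in PBS, 5.0 and 4.80 CPM in the 394 libraries and 6.96, 13.3 and 13.5 CPM in the 400 libraries. Its PBS libraries were close together, 400_1 was among them, and both 394 libraries were below them. The log2 fold change of *Zbp1* was 0.52 ± 0.28 for GA against PBS (edgeR, adjusted p = 0.894) and 1.2 ± 0.28 between the prefixes (adjusted p = 0.377). The RNA helicase *Ddx58* (RIG-I) ranged from 47.6 to 63.6 CPM over the 10 libraries and was highest in a PBS library, 388_3. *Ifih1* (MDA5) ranged from 22.5 to 37.4 CPM and *Dhx58* (LGP2), a regulator of the other helicases, from 16.3 to 30.4 CPM, both highest in 400_3. The log2 fold changes between the prefixes were smaller for these 3 helicases, at 0.20 ± 0.13, 0.16 ± 0.16 and 0.38 ± 0.19, than for *Zbp1*, *Ifi204* and *Ifi207*, the least of which was 1.19 ± 0.41. The difference between the helicases and the other sensors was not tested.

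The IFIT family encodes proteins that bind viral RNA and block its translation. All 4 genes lie within a cluster on chromosome 19, and in all 4 the libraries 400_2 and 400_3 were the 2 highest. *Ifit1* ran from 4.17 CPM in 394_1 to 21.8 CPM in 400_3 and *Ifit2* from 12.1 CPM in 394_2 to 49.4 CPM in 400_3. *Ifit3* was at 15.6, 10.7, 22.8, 10.1 and 16.6 CPM in PBS, 11.6 and 12.7 CPM in the 394 libraries and 16.7, 33.6 and 36.9 CPM in the 400 libraries. *Ifit3b* was at 4.58, 3.47, 6.78, 4.37 and 3.94 CPM in PBS, 1.26 and 2.72 CPM in the 394 libraries and 3.96, 10.5 and 8.70 CPM in the 400 libraries. The lowest libraries of *Ifit3b* were both of prefix 394, below every PBS library, whereas *Ifit3* in these was within the PBS range. The 2 genes are near copies. Of the stretches of 100 bases in *Ifit3*, 31.7% also occur in *Ifit3b*, and how reads that fit both were counted is not given in the sources used here, so the split between them is uncertain. The count of *Ifit3* was between 2.32 and 9.19 times that of *Ifit3b*. Between the prefixes, the log2 fold changes of *Ifit1*, *Ifit2*, *Ifit3* and *Ifit3b* were 1.84 ± 0.45, 1.46 ± 0.35, 1.26 ± 0.36 and 1.95 ± 0.46, with adjusted p-values of 0.412, 0.399, 0.515 and 0.377 (edgeR).

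The OAS family makes or resembles the enzymes that turn double-stranded RNA into a signal for RNA degradation. Its 5 genes lie on chromosome 5, and again 400_2 and 400_3 were the 2 highest libraries in all 5. *Oas2* was at 2.7, 2.36, 4.86, 3.28 and 0.510 CPM in PBS, 2.43 and 1.66 CPM in the 394 libraries and 2.25, 6.84 and 8.41 CPM in the 400 libraries. Its lowest library was 388_5. *Oas3* was counted 13, 0, 38, 0 and 0 times in PBS, 0 and 43 times in the 394 libraries and 9, 100 and 81 times in the 400 libraries. A count of 0 allows for up to 3 counts, so this gene was near the limit of detection in 4 of the 10 libraries. Its log2 fold change for GA against PBS was 2.04 ± 1.17 with edgeR, 2.04 with DESeq2 and 2.95 with limma-voom. With edgeR it was 1.57 without 400_2 and 3.74 without 388_3. *Oas1a* ranged from 2.45 to 15.1 CPM and shares 40.9% of its stretches of 100 bases with *Oas1g*. *Oasl1* and *Oasl2*, the OAS-like genes, ranged from 2.29 to 10.8 and from 5.78 to 29.7 CPM. *Oasl2* was lowest in 394_2 and 394_1, below every PBS library, and its log2 fold change between the prefixes was 1.75 ± 0.42 (edgeR, adjusted p = 0.400).

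The next group holds effectors of translation, nucleotide supply and growth. All 6 had a higher fitted level in prefix 400 than in 394, and edgeR counted 3 of them at an unadjusted p of 0.05, against 51.4% and 2.27% of all genes. *Eif2ak2* (PKR), the kinase that stops translation on double-stranded RNA, was at 19.8, 18.8, 21.2, 14.5 and 17.7 CPM in PBS, 16.6 and 18.4 CPM in the 394 libraries and 23.3, 24.1 and 29.8 CPM in the 400 libraries. All 3 libraries of prefix 400 were above every other library for this gene. The log2 fold change of *Eif2ak2* was 0.29 ± 0.15 for GA against PBS (edgeR, adjusted p = 0.894) and 0.55 ± 0.17 between the prefixes (adjusted p = 0.547). *Slfn5*, of the Schlafen family of growth regulators, was at 6.88, 5.08, 5.31, 4.43 and 5.92 CPM in PBS, 3.66 and 3.79 CPM in the 394 libraries and 5.05, 17.0 and 16.2 CPM in the 400 libraries. The 5 PBS libraries and 400_1 were within a narrow range, 400_2 and 400_3 were far above it and both 394 libraries were below it. For *Slfn5* the log2 fold change was 0.73 ± 0.41 for GA against PBS (edgeR, adjusted p = 0.895) and 1.78 ± 0.42 between the prefixes (adjusted p = 0.377). *Slfn2*, from the same cluster on chromosome 11, had 400_2 and 400_3 at 48.5 and 57.6 CPM, above the PBS range of 28.7 to 37.5 CPM, and the other 3 GA libraries at 20.9 to 24.4 CPM, below it.

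*Rsad2* (viperin) and *Cmpk2*, neighbours on chromosome 12 that act together in antiviral nucleotide metabolism, were, with *Ddx58*, the 3 genes in which the PBS library 388_3 was highest. *Rsad2* was at 2.04, 1.49, 8.37, 0.837 and 1.76 CPM in PBS, 1.29 and 2.02 CPM in the 394 libraries and 2.48, 6.92 and 5.84 CPM in the 400 libraries. *Cmpk2* was at 4.68, 2.54, 9.32, 5.86 and 3.85 CPM in PBS, 0.989 and 4.55 CPM in the 394 libraries and 3.24, 6.03 and 8.67 CPM in the 400 libraries. For both genes 388_3 was followed by 400_2 and 400_3 as the next highest libraries, so the groups overlapped. The log2 fold change of *Cmpk2* for GA against PBS was -0.16 ± 0.44 (edgeR, adjusted p = 0.976), the lowest of the 40, and without 388_3 it was 0.15. *Xaf1*, a binding partner of an apoptosis inhibitor, ranged from 8.36 to 17.8 CPM, and the log2 fold change between the prefixes was 0.47 ± 0.29.

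The membrane proteins and GTPases include restriction factors that act on viral entry, release or capsids. *Bst2* (tetherin) and *Ifitm3* followed *Lgals3bp* as the highest of the 40 per length of exon, at 42.4 and 26.9 CPM per kilobase in PBS and 44.6 and 30.8 in GA. *Ifitm3* was highest in 400_2 and 400_3 at 30.0 and 36.8 CPM and lowest in 394_1 at 10.2 CPM. *Gbp2* and *Gbp3*, guanylate-binding proteins encoded close together on chromosome 3, differed in their order of libraries. *Gbp2* was at 14, 14.9, 16.3, 21.1 and 12.1 CPM in PBS, 10.8 and 7.16 CPM in the 394 libraries and 13.6, 18.6 and 26.8 CPM in the 400 libraries. *Gbp3* was at 30.4, 20.9, 24.4, 30.1 and 30.2 CPM in PBS, 29.5 and 36.0 CPM in the 394 libraries and 28.2, 28.8 and 42.3 CPM in the 400 libraries. For *Gbp3* the 394 libraries were not low and 400_2 was within the PBS range, so that the prefixes differed by a log2 fold change of 0.01 ± 0.20, against 1.13 ± 0.30 for *Gbp2*. By edgeR, *Gbp3* had the smallest p-value of the 40 for GA against PBS, with a log2 fold change of 0.28 ± 0.14 and an adjusted p of 0.872 by edgeR (0.159 unadjusted by the exact permutation test, two-sided, n = 5 each). The dynamin-like GTPases were low. *Mx1* ranged from 3.73 to 13.9 CPM, with its lowest level in 400_1, while *Mx2* was at 7.62, 6.57, 8.03, 7.22 and 4.31 CPM in PBS, 6.17 and 7.10 CPM in the 394 libraries and 8.43, 13 and 9.78 CPM in the 400 libraries. All 3 libraries of prefix 400 were above every PBS library in *Mx2*, which the annotation lists as a polymorphic pseudogene, and both 394 libraries were within the PBS range.

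Among the other induced genes, *Lgals3bp*, a secreted glycoprotein that binds galectins, was the most abundant of the 40 both in CPM and per length of exon. It was at 218, 251, 307, 237 and 301 CPM in PBS, 225 and 203 CPM in the 394 libraries and 262, 377 and 406 CPM in the 400 libraries. Libraries 400_2 and 400_3 were above every PBS library, and the log2 fold change between the prefixes was 0.70 ± 0.18 (edgeR, adjusted p = 0.461). At the other end, *Ifi44* was counted 1, 27, 56, 0 and 14 times in PBS, 18 and 0 times in the 394 libraries and 15, 57 and 153 times in the 400 libraries, and its log2 fold change of 1.13 ± 1.07 for GA against PBS was 0.08 without 400_3 and 2.06 without 388_3. *Ifi27l2a* (3.82 to 14.2 CPM), *Rtp4* (7.83 to 33.9 CPM) and *Sp100*, a nuclear body protein (22.2 to 50.8 CPM), were highest in 400_3, with log2 fold changes between the prefixes of 1.25 ± 0.40, 1.28 ± 0.33 and 0.55 ± 0.25. *Trim30a* (41.5 to 61.9 CPM), also highest in 400_3, and *Parp14* (31.0 to 53.1 CPM), highest in 400_2, had log2 fold changes of 0.16 ± 0.15 and 0.55 ± 0.14.

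**Figure D4:**
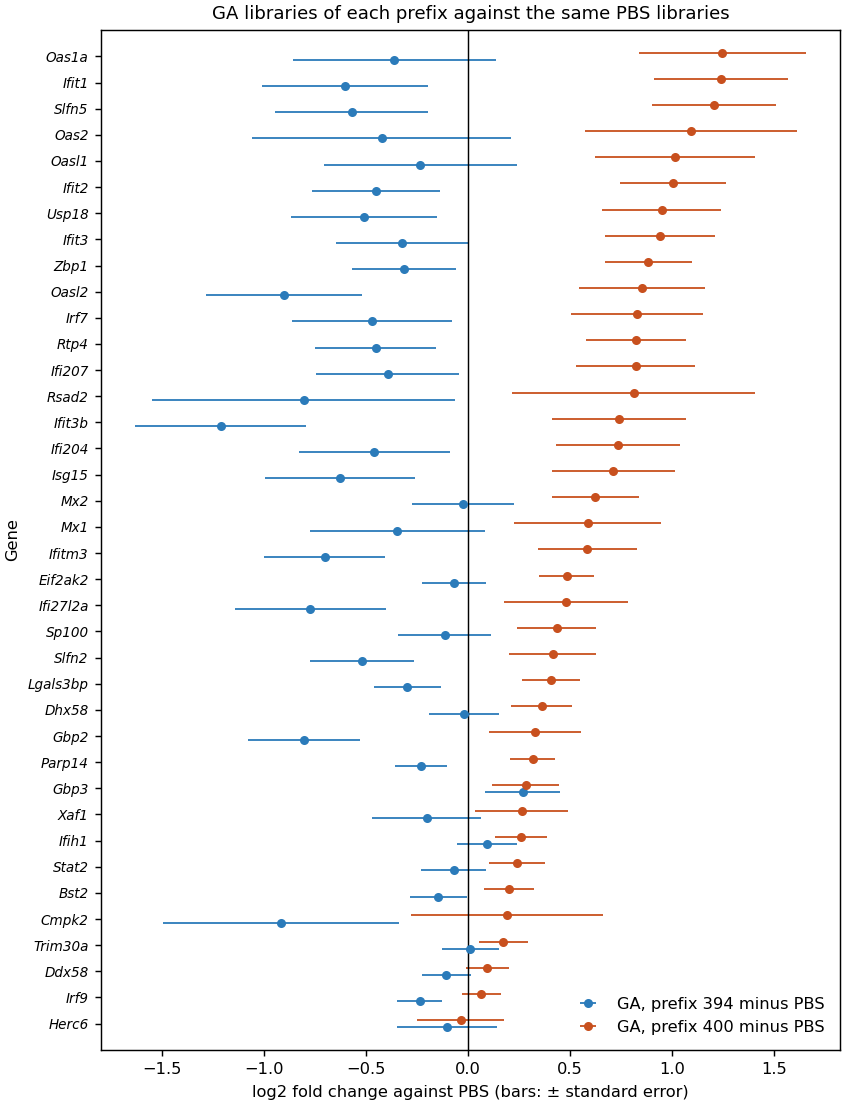
Log2 fold change (horizontal axis, bars ± SE) of the GA libraries of prefix 394 (blue) and of prefix 400 (orange) against the same 5 PBS libraries for 38 genes (vertical axis); Oas3 and Ifi44 are not drawn because some of their libraries had counts of 0. Most blue points lie below 0 and most orange points above it, while Gbp3, Ifih1 and Trim30a have both above 0.

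Set against the same 5 PBS libraries, the fitted fold changes of the prefixes had opposite signs for most of the genes. Library 400_1 did not share the level of 400_2 and 400_3, being above the mean of the gene over all libraries in 8 of the 40. These values share the PBS libraries and are given side by side without a test of their relation. With the GA libraries of prefix 394 alone, 36 of the 40 fitted log2 fold changes were below 0 and edgeR counted 7 of the 40 as lower at an unadjusted p of 0.05, with 0 called, where 49.9% of all genes were above 0 and 3.24% were at that p in either direction. With those of prefix 400 alone, 39 were above 0 and edgeR counted 22 as higher at an unadjusted p of 0.05, with 0 called and a smallest adjusted p of 0.452, where 51% of all genes were above 0 and 6.47% were at that p in either direction. For *Usp18* the fold changes in the fit with 3 groups were -0.51 ± 0.36 for prefix 394 and 0.95 ± 0.29 for prefix 400, and for *Ifit1* they were -0.60 ± 0.41 and 1.24 ± 0.33. For *Slfn5* they were -0.57 ± 0.37 and 1.2 ± 0.30, and for *Gbp3* 0.27 ± 0.19 and 0.28 ± 0.16.

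Gene by gene, 400_3 was the highest library in 29 of the 40, 400_2 in 7, 388_3 in 3 and 388_4 in 1. Over all genes tested, these libraries were the highest in 7.06%, 6.30%, 9.27% and 20.6%. The pair 400_2 and 400_3, singled out after its values were seen, held the 2 highest levels in 31 of the 40 genes, where it did so in 2.21% of all genes tested. The exceptions were *Irf9*, *Herc6*, *Ddx58*, *Cmpk2*, *Rsad2*, *Gbp2*, *Gbp3*, *Ifi27l2a* and *Ifi44*. Relative to the PBS median of each gene, the median over 39 genes was 1.69 in 400_2, 1.91 in 400_3 and 1.23 in 388_3, and 0.951, 0.841 and 0.892 in 400_1, 394_1 and 394_2. *Oas3* was left out of these ratios because its PBS median was 0. The GA libraries spread more widely than the PBS libraries for most of the genes. The SD of log2 CPM had a median over the 40 genes of 0.36 in PBS and 0.80 in GA, compared with 0.24 and 0.18 over all genes tested. It was larger in GA than in PBS for 35 of the 40 genes, and for 30.9% of all genes.

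**Figure D5:**
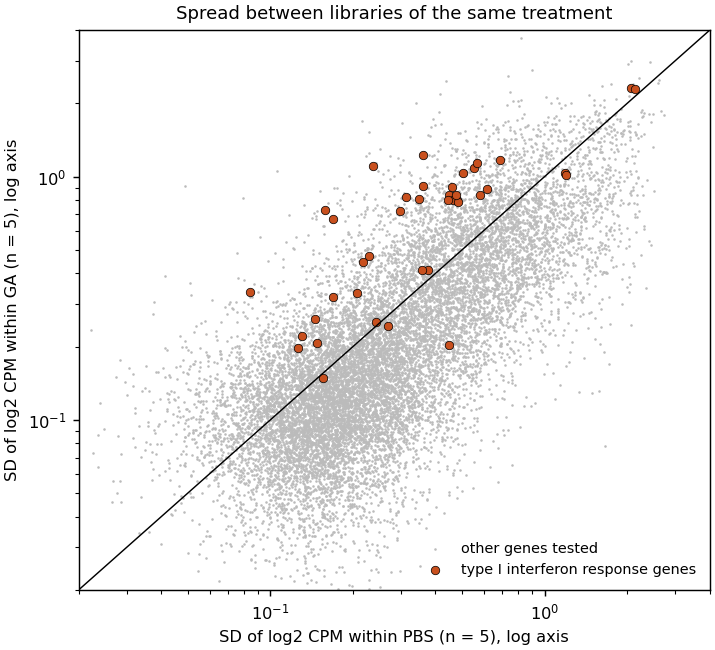
SD of log2 CPM within the 5 GA libraries (vertical axis, log scale) against that within the 5 PBS libraries (horizontal axis, log scale) for the interferon response genes (orange) and all other genes tested (grey), with the line of equal spread. Of the 40 orange points 35 lie above the line, where the share over all genes is 30.9%.

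The difference between prefixes was also set beside the promoter letters, without a test. The median log2 fold change of prefix 400 against 394 was 1.24 over the 18 genes with a match, with a range from 0.01 to 1.95, and 1.02 over the 12 with an entry and no match, with a range from 0.07 to 2.86. *Gbp3* and *Slfn5*, whose promoter stretches are printed above, both hold the letters, at log2 fold changes of 0.01 and 1.78.

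The rest of the pathway was described from lists of genes that are not among the 40. The ligands were at or near 0. The table listed 17 type I interferon genes, of which 14 had a count of 0 in every library, none passed the filter, and the highest count of any was 8. That count belonged to *Ifnb1*, which encodes interferon beta and was counted 0, 0, 0, 0 and 1 times in PBS, 0 and 0 times in the 394 libraries and 4, 8 and 7 times in the 400 libraries. It did not pass the filter for edgeR, and the exact permutation test for GA against PBS gave a p of 0.167 (two-sided, n = 5 each) on these few reads. For both receptor chains the difference between group means was smaller than the SD within either group. *Ifnar1* was at 183 ± 12.9 CPM in PBS and 181 ± 12.9 CPM in GA, and *Ifnar2* at 243 ± 16.8 and 248 ± 12.1 CPM (SD, n = 5 each).

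The 13 genes that sense nucleic acid and signal towards interferon had 6 members higher in prefix 400 than in 394, with 0 higher and 1 lower at an unadjusted p of 0.05 (edgeR). Over all genes tested, 51.4% were higher in prefix 400, and edgeR counted 2.27% as higher and 3.2% as lower at that p, the shares against which the counts of the following lists also stand. *Irf3*, the factor that starts interferon beta transcription, was at 70.8 ± 11.5 CPM in PBS and 72.9 ± 4.03 CPM in GA. *Cgas*, the cytosolic DNA sensor, had the smallest p-value of this list for GA against PBS, with a log2 fold change of 0.20 ± 0.09 (edgeR, adjusted p = 0.872). Of 9 tested negative regulators, 5 were higher in prefix 400, and edgeR counted 2 as higher and 1 as lower at an unadjusted p of 0.05, with a smallest adjusted p of 0.130. *Ptpn1*, a phosphatase of the receptor's kinases, was at 343 ± 31.9 CPM in PBS and 312 ± 26.9 CPM in GA (edgeR, adjusted p = 0.895). Of 14 tested genes of interferon gamma and its response, 11 were higher in prefix 400 and edgeR counted 4 at an unadjusted p of 0.05, and *Irgm2* had the smallest p-value for GA against PBS (edgeR, adjusted p = 0.895). The 31 tested genes of a further list of interferon-induced genes had 30 higher in prefix 400, of which edgeR counted 11 at an unadjusted p of 0.05. For GA against PBS, edgeR called 0 genes on any of these lists. It counted 3 genes of the last list, *Oas1g*, *Trim30d* and *Trim34a*, as higher in GA at an unadjusted p of 0.05, where 2.58% of all genes were. *Oas1g* was at 0.393, 0.418, 0.458, 0.496 and 0 CPM in PBS, 0.390 and 0.926 CPM in the 394 libraries and 0.722, 2.28 and 3.37 CPM in the 400 libraries, and its log2 fold change was 2.12 ± 0.71 (edgeR, adjusted p = 0.847). Only 394_1 of the GA libraries was within the PBS range for this gene, whose sequence is shared in part with *Oas1a*.

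In a bulk library, a greater share of cells that express these genes and more RNA per cell cannot be told apart. Markers of other cell types were summed in each library. The 9 neutrophil markers summed to 28.4 and 104 CPM in 400_2 and 400_3, within the GA range of 15.2 to 169 CPM, and to 437 CPM in 388_3, the highest of the PBS range of 39.8 to 437 CPM. The 7 monocyte markers summed to 100 and 65.7 CPM in 400_2 and 400_3 against 41.9 to 166 CPM in PBS. They summed to 48.0, 72.3 and 58.0 CPM in 394_1, 394_2 and 400_1. The 7 markers of border-associated macrophages summed to 146 and 78.5 CPM in 400_2 and 400_3 against 41.8 to 189 CPM in PBS. In 394_1, 394_2 and 400_1 they summed to 40.9, 71.0 and 76.3 CPM. The list for plasmacytoid dendritic cells, which secrete most alpha interferon in blood, held *Ccr9*, *Ly6d*, *Klk1*, *Cox6a2* and *Tcf4*. These 5 genes summed to 196 and 197 CPM in 400_2 and 400_3 against 191 to 228 CPM in PBS. The sum does not show which of the 5 carried it, so it was not read as a level of these cells. T cell markers summed to at most 2.76 CPM in any library and NK cell markers to at most 0.479 CPM. 1 NK cell marker was at 0 in every library. In none of these 6 lists was 400_2 or 400_3 above the highest PBS library. Among the GA libraries, 400_2 was the highest for monocyte and border-associated macrophage markers, and 400_3 for T cell markers. Of the neutrophil markers tested, edgeR counted 5 of 7 as lower in GA at an unadjusted p of 0.05, and of the monocyte markers 2 of 6, where 3.17% of all genes were. The sums in 400_2 and 400_3 were 20.5 and 26.9 CPM for B cell markers (18.0 to 28.7 CPM in PBS), 248 and 265 CPM for astrocytes (245 to 303), 186 and 211 CPM for oligodendrocytes (180 to 208), 0.655 and 0.540 CPM for neurons (0.737 to 1.77) and 48.4 and 49.0 CPM for endothelial cells (37.1 to 50.2). The part of other cells in the high levels of 388_3, 400_2 and 400_3 was not tested.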

How the data were processed

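RNA from sorted hippocampal microglia of 5 PBS and 5 GA libraries was measured. Per the labels, cDNA was pre-amplified with a SMARTer kit and made into libraries with Nextera XT, kits that do not mark strand. The authors deposited raw read counts per gene symbol, whole numbers without normalization, for 55453 genes. The submitters' processing notes list bcl2fastq 2.19.0, fastp 0.20.0, STAR 2.7.0f, Subread 1.6.4, featureCounts and DESeq2 with build GRCm38.p6. The annotation release and the treatment of reads that fit several genes are not given in the sources used here. Without molecular identifiers the amplified reads cannot be counted as molecules, so a limit of 3 counts for a count of 0 covers counting error only.

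The counts were filtered with filterByExpr (minimum count 10), scaled by TMM and tested with the quasi-likelihood F-test of edgeR 4.0.16 in R 4.3.3, with Benjamini-Hochberg adjustment over 14481 genes and a threshold of 0.05. GA against PBS was fitted without covariates, and the prefixes in a fit with 3 groups. Treatment was taken from the labels and 0 columns were left without a sample. Log2 CPM used a prior count of 2. Each gene was also given a two-sided exact permutation test over 252 arrangements of the libraries on log2(CPM + 0.1), with a smallest possible p of 0.00794. No pair of libraries of a group was a copy of another, with a chi-square per degree of freedom of 13.9 or more. Gene models, lengths and shared stretches came from GENCODE M21, in which 54586 of the 55453 symbols and all 40 genes were found, and promoters from RefSeq. *Mb21d1* was matched as *Cgas*, and 1 listed symbol was not used. DESeq2 1.42.0, limma-voom (limma 3.58.1), other filters and scalings, each library left out, and each prefix alone were alternatives. Figures used Python 3.11.15 with matplotlib 3.10.9. The scripts were tested on simulated counts.

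The 40 genes, the other lists and the tests were chosen with earlier results of these data known. Values in every library are given for the signalling genes *Irf7*, *Irf9*, *Stat2*, *Isg15* and *Usp18*, for the 5 genes with the smallest p-value in each direction (4 were lower), for the 5 with the widest range of log2 CPM, for the 3 highest and the 3 lowest by mean CPM, and for *Ifit3* and *Ifit3b*.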

Additional observations from a re-analysis of the deposited data

Results flagged for a closer look

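Each group of 5 libraries was examined for a library far from the others, by the gap to its nearest neighbour divided by the range of the group, against Dixon's critical value of 0.71. Of 82 groups 2 exceeded it, where chance gives about 1 in 20. Both were the PBS library 388_3. It held 23.1 CPM of *Usp18*, where the other PBS libraries held 10.7 to 11.9 CPM, at a ratio of 0.903. It also held 8.37 CPM of *Rsad2*, where the others held 0.837 to 2.04 CPM, at a ratio of 0.840. In the same library 36 of the 40 genes were above their mean over all libraries. With 388_3 left out, the log2 fold change of *Rsad2* for GA against PBS was 1.27 in place of 0.36, and that of *Usp18* 0.80 in place of 0.53, neither called by edgeR.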

How the results depend on the processing

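No gene of the 40 was called for GA against PBS under any alternative run, and the adjusted p-values of the 20 genes given by library ran from 0.452 upwards (edgeR, DESeq2 and limma-voom). The count at an unadjusted p of 0.05 for GA against PBS was 6 with no filter on low counts (6.9% of all genes), 7 (all lower) with prefix 394 alone (3.24%), 22 (all higher) with prefix 400 alone (6.47%), 1 with the title number as a replicate block (6.79%), and 5 (all lower) without 400_2 and 400_3 (3.66%), an alternative chosen after the data were seen. With a library left out it ran from 0 (without 388_2 or 400_3, 6.56% and 4.68% of all genes) to 9 (without 394_1, 4.72%). Fold changes above 0 numbered 4 with prefix 394 alone, 6 without 400_2 and 400_3, and 29 (without 400_3) to 38 (without 394_1) with a library left out. The difference of the mean over the genes was -0.31 with prefix 394 alone and 0.67 with prefix 400 alone, and with a library left out it ran from 0.07 (without 400_3) to 0.44 (without 394_1). Of the other pathway genes, DESeq2 counted 5 at an unadjusted p of 0.05 (4.52% of all genes), and with a library left out edgeR counted 1 (without 388_2, 6.56%) to 9 (without 394_2, 6.77%). Between the prefixes, 16 of the 40 were called with no filter, 0 to 2 with a library left out (2 without 400_1), and 0 were counted at an unadjusted p of 0.05 without 400_2 and 400_3. The causes of these changes were not tested.

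Among the 20 genes given by library, the log2 fold changes for GA against PBS that turned sign were, with prefix 394 alone, *Irf7* -0.46, *Stat2* -0.0625, *Isg15* -0.62, *Usp18* -0.50, *Eif2ak2* -0.0624, *Zbp1* -0.31, *Mx2* -0.0178, *Slfn5* -0.56, *Ifi44* -1.11, *Oas2* -0.42, *Rsad2* -0.80, *Lgals3bp* -0.29, *Ifit3* -0.32 and *Ifit3b* -1.21. Without 400_2 and 400_3 they were *Irf7* -0.36, *Stat2* -0.12, *Isg15* -0.36, *Usp18* -0.29, *Zbp1* -0.12, *Slfn5* -0.40, *Ifi44* -0.85, *Oas2* -0.37, *Rsad2* -0.58, *Lgals3bp* -0.19, *Ifit3* -0.15 and *Ifit3b* -0.80. With prefix 400 alone *Irf9* was at 0.0716, *Cmpk2* at 0.20 and *Gbp2* at 0.33, and with limma-voom *Ifit3b* at -0.0647. With a library left out, *Cmpk2* ran from -0.50 to 0.15, *Herc6* from -0.20 to 0.0636, *Gbp2* from -0.32 to 0.16 and *Ifit3b* from -0.15 to 0.49.

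With the replicate block, 0 genes were called, 35 of the 40 fold changes were above 0 and *Gbp2* was at 0.0450. Same-numbered PBS and GA libraries had correlations of their deviations from -0.109 to 0.044, and the other pairs from -0.109 to 0.067. No sign of pairing by number was seen, which does not exclude it, and the labels do not say what the number stands for. *Oas3* and *Ifi44* had 4 and 2 libraries at a count of 0, which limits their fold changes.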

Other observations

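Of the 14481 genes tested, 320 had 400_2 and 400_3 as the 2 highest libraries, of which 31 were among the 40, 20 were on the other pathway lists and 269 on neither. With a gap of over 0.5 on the log2 scale to the third library, 27 genes remained, 7 of the 40, 6 of the other pathway lists and 14 of neither. The lists do not hold every interferon-induced gene, so a gene on neither is not thereby outside the response. The following genes were chosen after their values were seen. *Il12b*, which encodes a subunit of interleukin 12, had the widest gap outside the 40, at 10.1 and 7.90 CPM in 400_2 and 400_3 and at most 2.13 CPM in the other libraries. The costimulatory receptor *Cd40* was at 2.83 and 3.40 CPM against at most 1.24 CPM, and the chemokine *Ccl5* at 3.88 and 5.69 CPM against at most 2.04 CPM. *C4b*, a complement component, was at 108 and 107 CPM against 28.6 to 64.3 CPM. *Ifi213*, of the Ifi200 family and on one of the other pathway lists, was at 4.69 and 5.97 CPM against at most 2.02 CPM. *Ifi206*, of the same family but on neither list, was at 6.40 and 6.79 CPM against at most 3.32 CPM. No test was made on this selection. The pseudogene *Gm10123*, outside the filter, was counted 492 and 520 times in 400_2 and 400_3 and 1 to 7 times in the other libraries.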
